A study of Mus musculus with 6 samples.

Results

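The genes described here are 8 genes that digest and take up dietary sugar in the small intestine: Sis, Lct, Mgam, Treh, Slc5a1, Slc2a2, Slc2a5 and Khk. They were chosen by name, as a functional set, and each has 1 row among the 24956 rows of the deposited expression table. RNA was sequenced from mouse intestinal organoids, epithelial cultures that form crypt-like and villus-like regions, in 6 libraries. All 6 carry the Apc Min genotype, a truncating allele of Apc, whose product helps to degrade beta-catenin and so restrains Wnt signalling. There were 3 libraries from organoids in control medium and 3 from organoids in low glutamine medium, and no library of a wild-type genotype was analysed here. The series title names alpha-ketoglutarate, a product of glutamine breakdown, together with Wnt signalling and differentiation in colorectal cancer. The glutamine concentration, the time in the medium, the region of gut, the age of the mice and how many animals the cultures came from are not stated in the labels. The design text speaks of biological replicates without naming separate animals or cultures, so p-values measure only the spread between these samples, which may be technical.

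Carbohydrate reaches the intestinal surface as starch fragments and disaccharides, which enzymes anchored in the brush border of enterocytes, the absorptive cells, cut into single sugars. Sucrase-isomaltase (Sis) splits sucrose and branched starch fragments, maltase-glucoamylase (Mgam) splits maltose and longer starch chains, lactase (Lct) splits milk sugar, and trehalase (Treh) splits trehalose. The sodium-coupled carrier SGLT1 (Slc5a1) then takes up glucose and galactose, GLUT5 (Slc2a5) takes up fructose, and GLUT2 (Slc2a2) lets sugars out toward the blood. Ketohexokinase (Khk) phosphorylates fructose inside the cell, the first step of its breakdown. These genes are known as markers of mature enterocytes, and transcription factors of the CDX, HNF4 and GATA families are known to act on several of them.

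The upstream sequences of 3 of the genes are shown because they span the range of the changes described below: Sis had the highest level in control, Lct fell the most and Mgam the least. Each is the 250 bases before the annotated start, 5′ to 3′ on the strand of the gene, from RefSeq on GRCm38.p6 (mm10). They lie at chr3:72967864-72968113 (minus strand, Sis), chr1:128328319-128328568 (minus strand, Lct) and chr6:40628581-40628830 (plus strand, Mgam). Capitals mark matches, on either strand, to short motifs of known regulators.
Sis: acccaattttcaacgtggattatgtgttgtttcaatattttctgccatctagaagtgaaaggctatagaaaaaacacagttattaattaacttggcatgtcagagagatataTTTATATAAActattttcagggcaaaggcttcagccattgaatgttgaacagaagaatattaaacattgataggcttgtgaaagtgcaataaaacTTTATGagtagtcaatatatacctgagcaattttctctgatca
Lct: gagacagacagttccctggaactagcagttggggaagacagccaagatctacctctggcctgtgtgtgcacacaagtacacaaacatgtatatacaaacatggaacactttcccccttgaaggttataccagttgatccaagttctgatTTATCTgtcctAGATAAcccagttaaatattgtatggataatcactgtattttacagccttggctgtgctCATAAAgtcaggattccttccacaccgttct
Mgam: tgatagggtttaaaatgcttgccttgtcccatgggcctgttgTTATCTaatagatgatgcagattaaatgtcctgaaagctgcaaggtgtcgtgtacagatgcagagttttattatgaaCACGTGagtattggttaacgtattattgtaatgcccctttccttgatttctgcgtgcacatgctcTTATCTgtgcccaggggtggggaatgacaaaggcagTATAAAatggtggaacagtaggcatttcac
The letters searched were TTTATG for CDX factors, AGATAA or else TGATAA for GATA factors, and CAAAGTCCA for HNF4. Also searched were CACGTG, the E-box that ChREBP and other factors use, CTTTGAT for TCF factors of the Wnt pathway and TATAAA for the TATA box. The Sis window held a TTTATG match from 43 to 38 bases before the start and 2 overlapping TATAAA matches on opposite strands. The Lct window held 2 AGATAA matches, nearest at 90 to 85 bases, and a TTTATG match at 31 to 26 bases. The Mgam window held 2 AGATAA matches, a CACGTG match and a TATAAA match, the last from 30 to 25 bases before the start. Mgam also has annotated coding transcripts with later starts, whose upstream sequence is not in this window.

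Windows of the same length were compared for all 8 genes and for 32851 RefSeq promoters. TTTATG was in 2 of the 8 (Sis and Lct) and in 10.8% of all windows, AGATAA in 2 (Lct and Mgam) and 9.99%, and TGATAA in 1 (Slc2a2) and 7.94%. CACGTG was in 3 (Mgam, Slc5a1 and Khk) and 6.02%, and TATAAA in 2 (Sis and Mgam) and 12.4%. CAAAGTCCA was in 1 (Treh) and 0.384%, and CTTTGAT in 0 of the 8 and 3.21%. The Khk window lies before an annotated start inside the gene bounds given for Khk here, and its match lies within those bounds. The Slc2a5 window held none of these letters. No motif was shared by more than 3 of the genes. A match is a run of letters and was not tested as a binding site.

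Several facts of the libraries touch every result. Estimated depth was 24.4 to 35.4 M (mega) reads in control and 28.0 to 33.9 M reads in low glutamine libraries. Xist, the RNA of the inactive X chromosome, averaged 87.3 RPKM in control medium against 0.0286 RPKM in low glutamine medium. Eif2s3y, a Y-linked gene, was listed at 0 in the 3 control libraries and reached 25.2 to 31.4 RPKM in the others. The medium and this difference in sex-linked transcripts coincided in all 6 libraries, and their parts in any change below cannot be told apart. Markers of epithelium were high in both groups, with Epcam at 385 and 490 RPKM and Vil1 at 190 and 133 RPKM. Of 17 markers of stromal, muscle, endothelial, glial and immune cells, 16 had a mean under 1 RPKM. Their summed level was 1.36 to 1.65 RPKM in control and 3.26 to 3.51 RPKM in low glutamine, Col3a1 was listed at 0 in every library, and Cd68 (0.685 and 1.998 RPKM) passed the test as higher.

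Expression of the 8 sugar genes was lower in low glutamine medium in each case, from 1.499-fold lower for Mgam to 39.7-fold lower for Lct in mean RPKM (which scales reads to the length of the transcript and the depth of the library, so that levels of different genes can be compared). All 8 fell by limma on log2(RPKM + 1), with a two-sided test, Benjamini-Hochberg adjustment over 11082 tested rows and a threshold of 0.05. The same call was made for 30.3% of tested rows, so a lower call alone was common in these libraries. None of the 8 rose, where 36.1% of tested rows did. The size was less common: 7 of the 8 were at least 5-fold lower, as were 1.35% of tested rows. The median log2 fold change of the 8 genes was -2.63, against 0.03 over all tested rows. For each of the 8, every low glutamine value lay below every control value, as for 31.3% of tested rows. In bulk samples, fewer enterocytes and less RNA per enterocyte cannot be told apart.

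**Figure D1:**
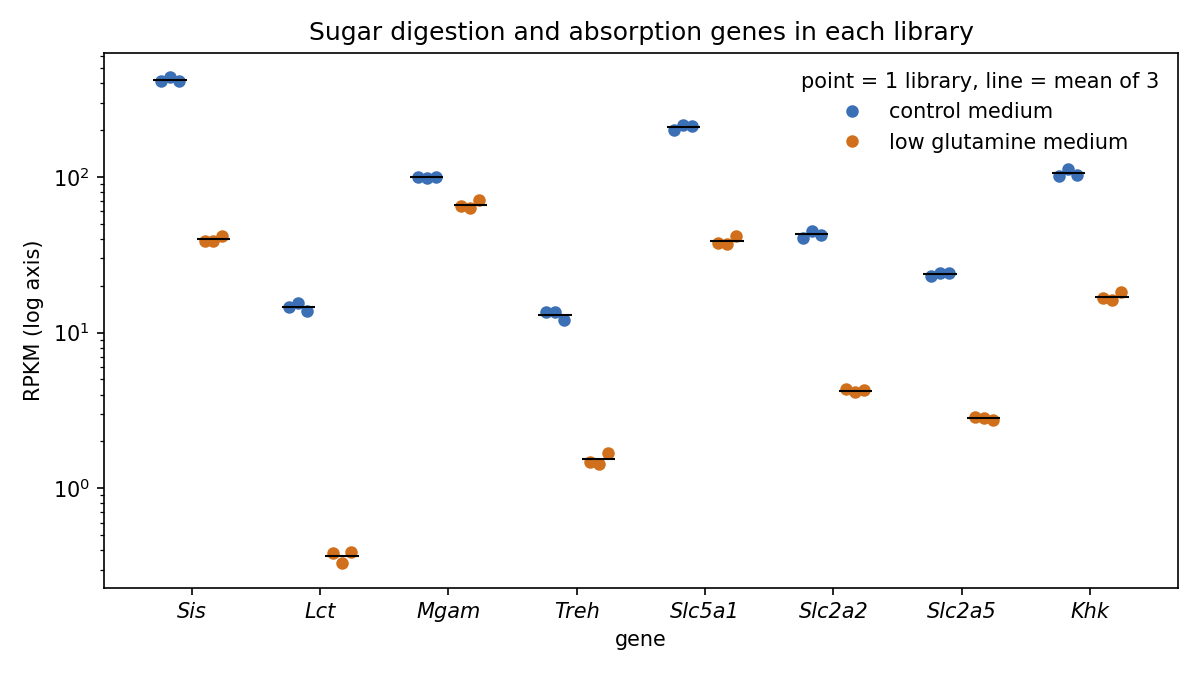
RPKM (log axis) of the 8 sugar digestion and absorption genes, with 1 point per library and a line at the mean of the 3 libraries of control medium (blue) or low glutamine medium (orange). The groups are separate for every gene, the gap is widest for Lct (14.6 and 0.368 RPKM) and narrowest for Mgam (99.5 and 66.4 RPKM).

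The disaccharidases, which act first, differed most among themselves. Sis (chromosome 3, 72888557 to 72967863) measured 415, 436 and 414 RPKM in control replicates 1 to 3 and 38.9, 38.5 and 41.9 RPKM in low glutamine replicates 1 to 3. The lowest control value was thus about an order of magnitude above the highest low glutamine value. Sis fell by 3.38 on the log2(RPKM + 1) scale (SE 0.06, limma adjusted p = 2.7e-13) to 9.42% of its control mean. By mean RPKM it stood at rank 132 of all rows in control and at rank 1385 in low glutamine.

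Lct (chromosome 1, 128284756 to 128328318) measured 14.6, 15.5 and 13.8 RPKM in control medium and 0.385, 0.329 and 0.390 RPKM in low glutamine medium. The low glutamine libraries all lay below the control libraries, at an estimated 81, 67 and 67 reads each against 2076 to 3387 reads in control. Lct fell by 3.51 on the log2(RPKM + 1) scale (SE 0.06, adjusted p = 2.5e-13), a value that the pseudocount of 1 RPKM compresses. The plain log2 ratio of the means was -5.31, or 2.52% of control. Lct met the expression minimum for the test, a mean of 1 RPKM over the 6 libraries, only through its control values. Lct was rank 16 from the bottom among 11082 tested fold changes.

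Mgam (chromosome 6, 40628831 to 40769123) measured 100.2, 98.8 and 99.3 RPKM in control medium and 64.9, 63.1 and 71.0 RPKM in low glutamine medium. The groups did not overlap, but low glutamine libraries kept 66.7% of the control mean. The fall was 0.58 on the log2(RPKM + 1) scale (SE 0.06, adjusted p = 2.5e-06), rank 1048 of the tested fold changes from the bottom. Treh (chromosome 9, 44673233 to 44686305) measured 13.5, 13.5 and 12.1 RPKM in control medium and 1.48, 1.44 and 1.68 RPKM in low glutamine medium. It fell by 2.47 (SE 0.06, adjusted p = 6.1e-12) to 11.7% of control, and its low glutamine values rested on an estimated 96 to 103 reads per library.

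Among the transporters, the apical glucose carrier Slc5a1 was the most abundant. Slc5a1 (chromosome 5, 33104219 to 33162699) measured 199, 215 and 211 RPKM in control medium and 37.4, 37.0 and 41.7 RPKM in low glutamine medium. It fell by 2.40 on the log2(RPKM + 1) scale (SE 0.06, adjusted p = 8.8e-12) to 18.6% of control, the smallest fall after that of Mgam.

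The basolateral carrier Slc2a2 (chromosome 3, 28697903 to 28728361) measured 40.3, 45.2 and 42.5 RPKM in control medium and 4.31, 4.15 and 4.26 RPKM in low glutamine medium. It fell by 3.06 (SE 0.05, adjusted p = 3.4e-13) to 9.93% of control, close to the relative level of Sis. The fructose carrier Slc2a5 (chromosome 4, 150119344 to 150144168) measured 23.0, 24.1 and 24.2 RPKM in control medium and 2.88, 2.84 and 2.73 RPKM in low glutamine medium. It fell by 2.70 (SE 0.05, adjusted p = 4.6e-13) to 11.9% of control. Of the 3 transporters, the one on the exit side of the cell kept the smallest share of its control level.

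Khk (chromosome 5, 30921436 to 30931248), which acts on fructose after uptake, measured 102, 113 and 104 RPKM in control medium and 16.7, 16.3 and 18.1 RPKM in low glutamine medium. The fall was 2.57 (SE 0.06, adjusted p = 3.5e-12), to 16.1% of control. Ketohexokinase has alternative isoforms, which a single value per gene does not separate.

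**Figure D2:**
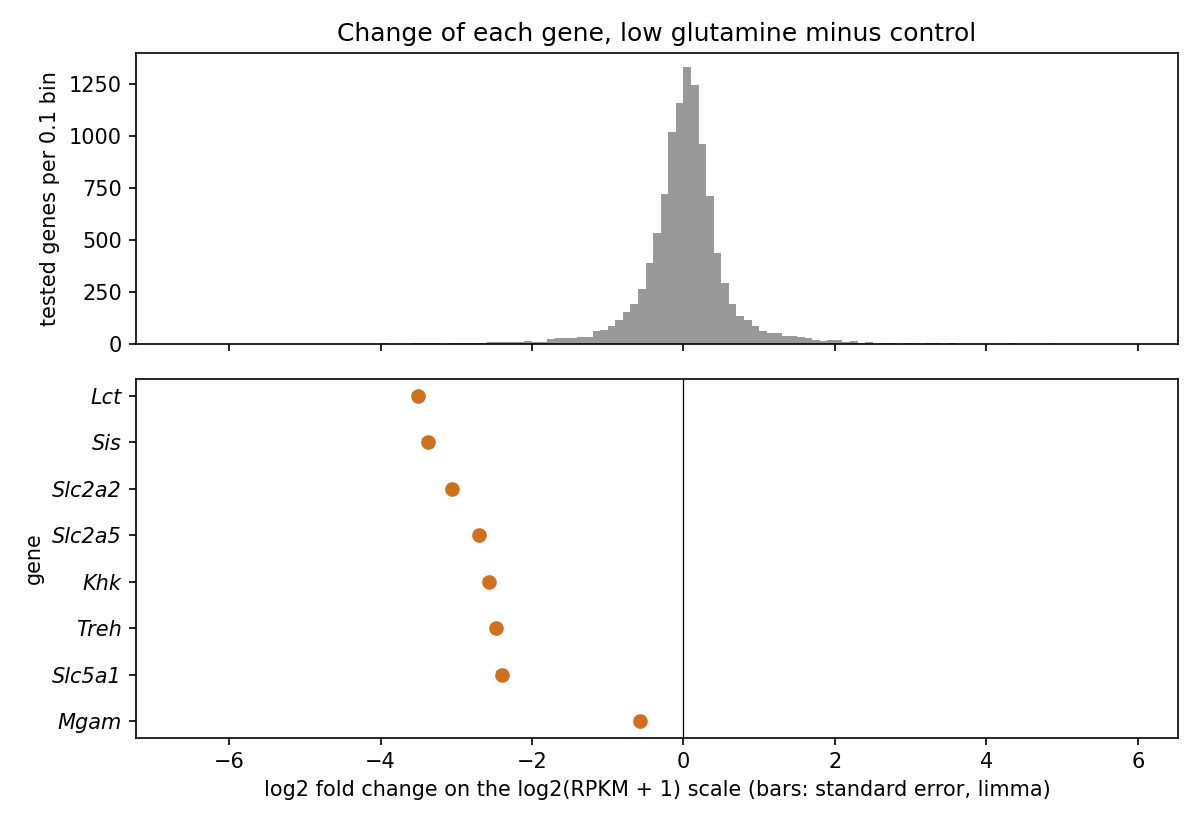
Upper panel, number of tested genes (of 11082) in each 0.1-wide bin of log2 fold change, low glutamine minus control, on the log2(RPKM + 1) scale. Lower panel, the same quantity for the 8 sugar genes with standard errors (about as wide as the points): 7 lie between -3.51 and -2.40 and Mgam at -0.58.

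Levels can be set in order within a group because RPKM is scaled to length. The length used for each gene is not given, so the order of genes at close levels may depend on it. In control the order was Sis, Slc5a1, Khk, Mgam, Slc2a2, Slc2a5, Lct and Treh, and no neighbours in it overlapped, although Khk (102 to 113 RPKM) and Mgam (98.8 to 100.2 RPKM), and Lct and Treh, were close. In low glutamine, Mgam was highest at 66.4 ± 4.12 RPKM (SD, n = 3). Sis (39.8 ± 1.83 RPKM) and Slc5a1 (38.7 ± 2.62 RPKM) came next and overlapped, so their order was not resolved. Khk (17.04 ± 0.976 RPKM), Slc2a2 (4.24 ± 0.0831 RPKM), Slc2a5 (2.82 ± 0.0754 RPKM), Treh (1.53 ± 0.128 RPKM) and Lct (0.368 ± 0.0336 RPKM) followed. Lct and Treh thus exchanged places, and Mgam moved to the top.

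The summed level of the 8 genes was 908, 961 and 921 RPKM in control medium and 167, 164 and 182 RPKM in low glutamine medium, 18.4% of the control mean. The 4 hydrolases together kept 19.7% and the 3 transporters 16.7%. In low glutamine, Mgam made up 66.4 of the 108 RPKM of the hydrolases and Slc5a1 38.7 of the 45.8 RPKM of the transporters. These 2 percentages therefore depend mostly on 1 gene each. The make-up of the sum of the 8 genes also differed. Mgam was 11.0%, 10.3% and 10.8% of it in control and 38.9%, 38.6% and 39.0% in low glutamine. Sis was 45.4 ± 0.368% of the sum in control and 23.3 ± 0.249% in low glutamine (SD, n = 3). The share of Slc5a1 overlapped between groups, at 21.9 to 22.9% and 22.4 to 23.0%. Slc2a2 was 4.59 ± 0.131% of the sum in control and 2.48 ± 0.127% in low glutamine (SD, n = 3), and Lct 1.57 ± 0.0647% and 0.215 ± 0.0147%.

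**Figure D3:**
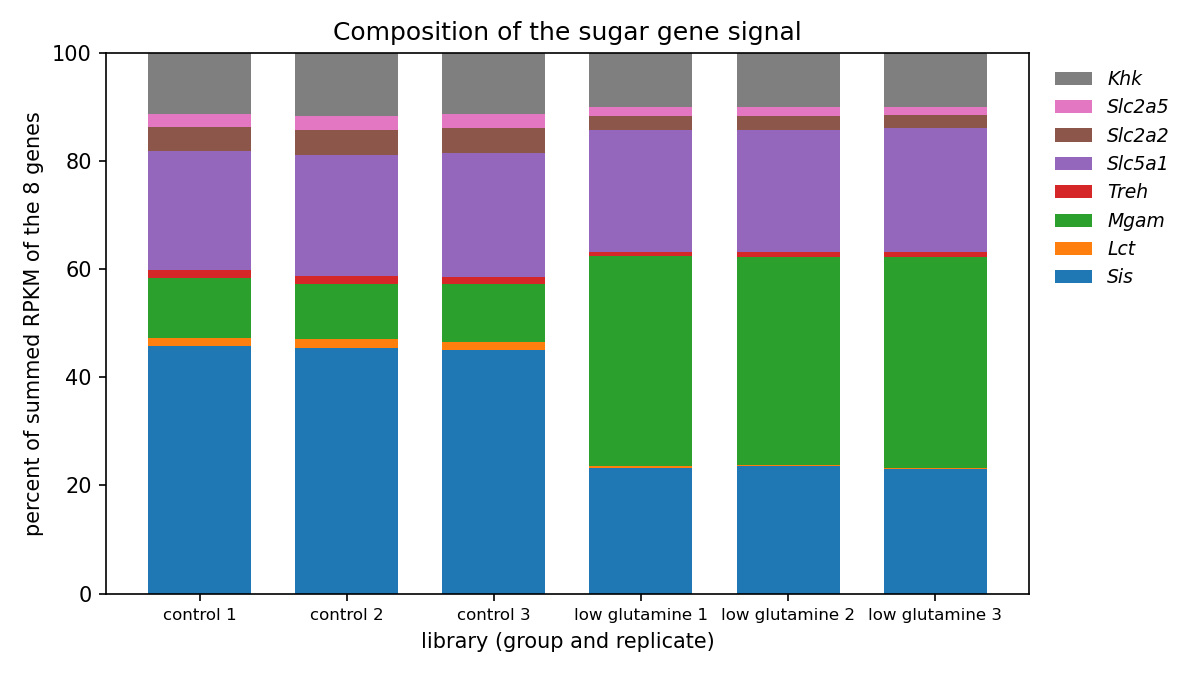
Each bar is 1 library and shows the percent of the summed RPKM of the 8 genes that each gene makes up, for 3 control and 3 low glutamine libraries. The green Mgam segment is 10.3 to 11.0% in control and 38.6 to 39.0% in low glutamine, and the purple Slc5a1 segment is alike in both.

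Ratios between genes of a library do not depend on how libraries are scaled to each other. Sis exceeded Mgam 4.14, 4.41 and 4.17-fold in the control libraries, whereas the ratio was 0.599, 0.610 and 0.590 in the low glutamine libraries. The order of these related enzymes was therefore inverted in every library of the low glutamine group. Slc5a1 exceeded Slc2a2 4.75 to 4.97-fold in control and 8.69 to 9.81-fold in low glutamine. The ratio of Sis to Slc2a2 overlapped, at 9.66 to 10.3 and 9.03 to 9.84. Khk over Slc2a5, the enzyme and the carrier of fructose, was 4.28 to 4.68 in control and 5.72 to 6.64 in low glutamine.

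Of the 28 possible ratios, 26 did not overlap between groups and 2 did, Sis to Slc2a2 and Treh to Slc2a5. With 3 libraries against 3, an exact two-sided permutation test cannot go below p = 0.1, which these 26 reached (adjusted p = 0.11 over the 28 ratios). Both overlapping ratios had larger values in the exact permutation test, p = 0.3 and p = 1. The unequal falls therefore rest on the non-overlap of the libraries and not on a passed test. The 28 ratios share genes and are not independent of each other. How often ratios of other gene pairs separate between the groups was not tested. Since 66.4% of tested rows passed the limma test in either direction, such non-overlap may be common.

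Replicates were close within a group for all 8 genes. The coefficient of variation (SD over mean of RPKM) ran from 0.674% for Mgam to 6.07% for Treh in control, and from 1.96% for Slc2a2 to 9.14% for Lct in low glutamine. Control replicate 2 was above its group mean for 7 of the 8 genes and low glutamine replicate 3 for 7 of 8. These deviations, at most 0.11 on the log2(RPKM + 1) scale, were small beside each difference between groups.

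Genes with the nearest profile were sought by the Euclidean distance of mean-centred log2(RPKM + 1) values over the 6 libraries. This distance mostly reflects the size of the group difference on that scale. Low genes are compressed there, so near neighbours can differ in the fold change of RPKM. Nearest to Sis were the acetyltransferase gene Nat8 and the cytochrome P450 gene Cyp2c66, and nearest to Lct were Cyp4f14 and the apolipoprotein gene Apoa4. Nearest to Slc5a1 were the fatty acid binding protein gene Fabp2 and Cyp3a13, to Slc2a2 Btnl1 and Tm6sf2, and to Slc2a5 Ifit1bl2 and Bcl2l15. Treh lay nearest to Ugt2a3 and Asah2. Bst1 was among the nearest to Khk, at a distance of 0.077, but in mean RPKM Bst1 fell 35.8-fold and Khk 6.22-fold. Mgam lay nearest to Lima1 and the X-linked Kdm5c. Within the set, 7 of the genes had another at a distance of 0.405 or less, while the nearest to Mgam, Slc5a1, was at 2.23.

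A later enzyme of fructose breakdown was lower by a similar amount to Khk. Triokinase (Tkfc), which phosphorylates glyceraldehyde, measured 322 ± 33.1 and 56.4 ± 2.03 RPKM (log2 fold change -2.49, limma adjusted p = 2.9e-11), or 17.5% of control beside 16.1% for Khk. Over all tested rows 30.3% fell and 36.1% rose, the background for the lists below. In a list of 20 genes that handle absorbed sugars, 17 were tested, of which 12 fell, 3 rose and 2 did not pass (median -0.45). G6pc and Fbp1, which encode enzymes of glucose production, fell from 10.3 to 0.172 RPKM and from 45.5 to 5.33 RPKM. On the log2(RPKM + 1) scale they fell by 3.27 and 2.88, where the value of G6pc is the more compressed. G6pc met the expression minimum only through its control values. The galactose mutarotase gene Galm fell from 58.0 to 28.5 RPKM. Those that rose included the hexokinase gene Hk2 (5.59 to 14.4 RPKM) and the aldose reductase gene Akr1b3. Galk1, the galactokinase, stood at 39.0 and 38.3 RPKM and G6pc3 at 21.0 and 21.5 RPKM. Neither passed, and G6pc3 rose when libraries were rescaled to equal sums or quantile normalised.

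Of 18 other sugar transporters listed, 7 were tested, with 5 lower, 1 higher and 1 not passed (median -0.25), and 3 lower with libraries rescaled to a common sum. Slc2a1 (GLUT1), the glucose carrier found in most cells, fell from 25.4 ± 1.91 to 19.2 ± 0.906 RPKM (-0.39, adjusted p = 1.6e-04). In low glutamine Slc2a1 was therefore above Slc2a2, whereas in control it was below. The inositol carrier gene Slc5a11 fell from 2.27 to 0.191 RPKM, and met the expression minimum only through its control values. Slc2a9, which carries urate, fell from 4.64 to 3.05 RPKM. Slc5a9 and Slc5a3 fell by 0.21 and 0.25, calls that were lost with rescaling to a common sum. Slc50a1, of the SWEET sugar carriers, rose from 9.46 to 16.1 RPKM, and Slc2a8 (2.19 and 2.29 RPKM) did not pass. Among glycosidases related to Sis, Mgam and Lct or acting on starch and glycogen, 6 of 10 were tested, of which 1 fell and 2 rose (median 0.10), and 4 rose with rescaling to a common sum. The lysosomal alpha-glucosidase Gaa rose from 20.0 to 24.3 RPKM and Gba2 from 1.99 to 3.42 RPKM. Ganab, a glucosidase of the endoplasmic reticulum in the same family as Sis, stood at 64.2 and 68.3 RPKM, and neither it nor Ganc passed.

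SGLT1 draws on the sodium gradient that the sodium-potassium pump maintains. The pump subunit gene Atp1b1 fell by 0.55 on the log2(RPKM + 1) scale, from 581 to 396 RPKM. Atp1b3 did not pass (32.5 and 32.3 RPKM), and the pump regulator Fxyd3 rose from 22.5 to 55.6 RPKM, so that 2 of 4 tested members fell and 1 rose.

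Known regulators of these genes moved in both directions. Of 17 tested, against 30.3% lower and 36.1% higher over all tested rows, 8 fell, 5 rose and 4 did not pass (median -0.19). Gata6, among those that fell, did not pass with rescaling to a common sum. Cdx2, the intestinal homeobox factor known to act on the Sis promoter, fell from 97.1 ± 4.67 to 65.6 ± 0.986 RPKM (-0.56, adjusted p = 2.4e-06). Hnf4a fell by 0.49 and its relative Hnf4g fell from 40.6 to 10.9 RPKM, and the lipid regulator Creb3l3 fell by 2.17. Gata4 stood at 42.0 ± 3.62 and 41.2 ± 0.335 RPKM and did not pass. The duodenal factor Pdx1 rose from 0.302 to 14.6 RPKM and Onecut2 from 3.75 to 15.2 RPKM. Mlxipl, which encodes the sugar-sensing factor ChREBP, fell from 68.4 to 39.3 RPKM and its partner Mlx from 27.5 to 14.4 RPKM. Of 8 tested genes known to respond to ChREBP, 6 fell and 2 rose. Among the 6, Fasn and Acaca did not pass with rescaling to a common sum or without control replicate 1, control replicate 2 or low glutamine replicate 1, and Acaca also without low glutamine replicate 2. Pklr, Me1 and Gpd1 fell by 2.17, 2.15 and 1.31 and Elovl6 by 0.64, while Arrdc4 rose by 0.35. Txnip rose by 0.16 with an adjusted p of 0.040, and did not pass without any 1 of the 3 control libraries or without low glutamine replicate 1.

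**Figure D4:**
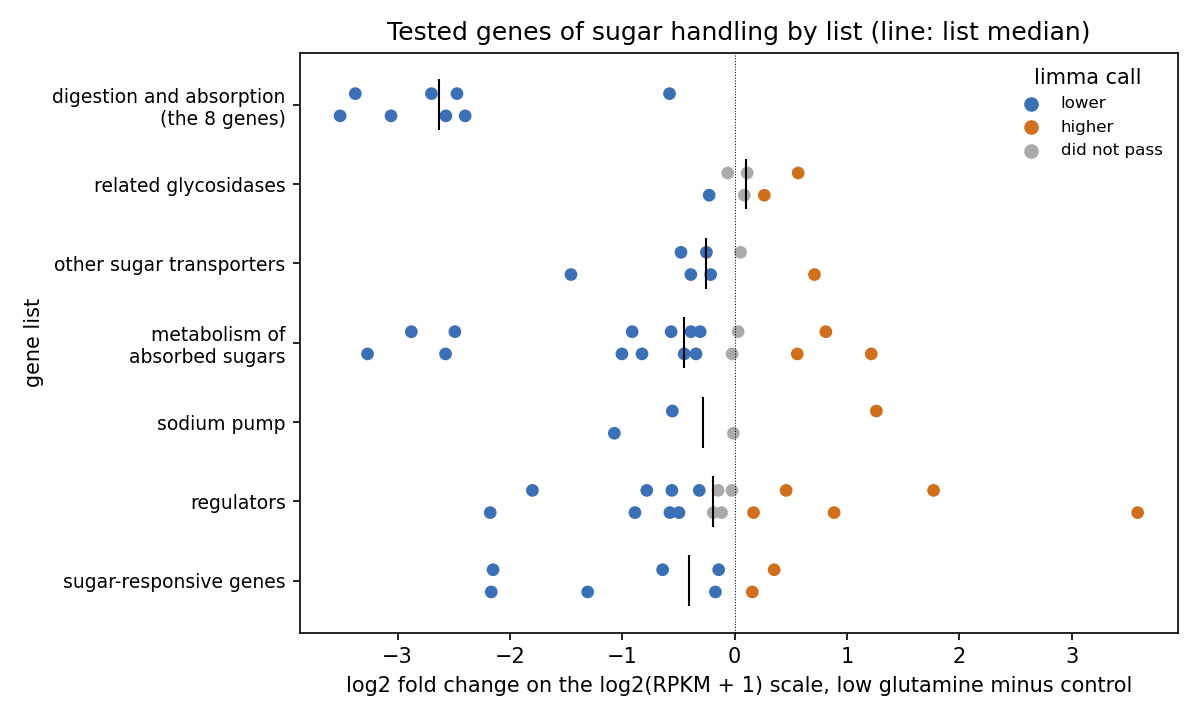
Log2 fold change, low glutamine minus control, of the tested genes of each list of sugar handling, 1 point per gene, coloured by the limma call, with a line at the list median. Of the 8 digestion and absorption genes 7 lie below -2, where 4 of 17 genes of sugar metabolism, 1 of 17 regulators, 2 of 8 sugar-responsive genes and 0 of the related glycosidases, other transporters and pump genes lie. Not drawn are lists of enterocyte markers, where such falls were also common. Below -2 were 12 of 22 enterocyte markers, 14 of 24 proximal and 10 of 15 tested distal enterocyte genes. Some of these genes met the expression minimum only through their control values.

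Markers of cell types moved beside the sugar genes. Of 22 enterocyte markers outside the set, 17 fell and 5 rose (median -2.12), among them Apoa1, Apoa4 and Enpep, of which Apoa1 fell by 3.15. The 5 that rose were the brush border enzymes Anpep (220 to 466 RPKM), Alpi and Mep1a, together with Apob and Ada. The summed level of all 22 enterocyte markers was 2808 to 2997 RPKM in control and 992 to 1104 RPKM in low glutamine. Genes of proximal enterocytes fell in 22 of 24 (median -2.13) and those of distal enterocytes in 14 of 15 tested (median -2.53). The distal genes Slc51a, Slc51b, Slc10a2, Dpep1, Clec2h and Cubn met the minimum of 1 RPKM only through their control values, which favours a lower call. So did Gda of the proximal list and Slc15a1 of the enterocyte list. Both regional lists share genes with the enterocyte list, such as Apoa4 and Enpep. In these lists, the iron exporter Slc40a1 rose from 0.306 to 16.1 RPKM and Mep1a from 9.87 to 12.9 RPKM, and Cybrd1 did not pass. Cybrd1 was called higher with rescaling to a common sum or quantile normalisation. Xpnpep2, among the distal genes that fell, did not pass with rescaling to a common sum or without low glutamine replicate 2. A difference in gut region between the groups was not tested. All 8 stem cell markers rose (median 0.91), and their sum was 948 to 1028 RPKM in control and 1800 to 1994 RPKM in low glutamine. Of 11 tested secretory markers 7 rose and 4, all of goblet cells, fell. The part of these cell type differences in the fall of the sugar genes was not tested.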

How the data were processed

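RNA-seq values of 6 libraries were used, 3 per group, grouped by title. The deposited values are RPKM, made by the authors, and per the submitters' processing notes CASAVA 1.8, HISAT2 2.0.4, Partek and mm10 were used, named without their roles; annotation, counting rule and use of strand are not given in the sources used here. By symbol 24310 and by synonym 524 of the 24956 rows were found in RefSeq (GRCm38.p6). Coordinates are 1-based RefSeq gene bounds.

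Depth was estimated in 1560 single-exon genes as the read number between 15 and 45 M that made most low values whole reads (61.1 to 67.7% within 0.05). Multiples of it are not excluded by this search. Read numbers per gene use the longest coding transcript of GENCODE M21. They are estimates, and RPKM keeps no counts, so no count test was run.

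Rows with a mean of at least 1 RPKM (11082, leaving 13874 untested) were tested with limma 3.58.1 (R 4.3.3, empirical Bayes with variance trend) on log2(RPKM + 1), where low genes are compressed. It was also run on simulated data with independent noise and few changed genes, whereas 66.4% of the tested rows passed here. Lct, G6pc, Slc5a11, Cd68, Pdx1 and Slc40a1 were among the genes that met the minimum of 1 RPKM only through the group where they were higher. The 8 genes and the 14 other lists were chosen with earlier results of these data known. All 8 genes were named, with up to 4 genes of smallest p per list, small remainders and fixed partners, not all of which are printed. Same-numbered libraries deviated together (r = 0.15, 0.25 and 0.57 across genes), so a fit with the replicate number as a block was an alternative. So did control replicate 2 with low glutamine replicate 1 (0.36) and control replicate 1 with low glutamine replicate 2 (0.20), so the numbers may not mark true pairs. Tables and plots were made in Python 3.11.15 (numpy 2.4.6, pandas 2.3.3, matplotlib 3.10.9). Some items were left out of the text and are not reported here.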

Additional observations from a re-analysis of the deposited data

How the results depend on the processing

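Each of the 8 sugar genes stayed lower and past the threshold under all 17 alternatives, and 8 of 8 were called lower in each, the replicate block included (8 of 8). The block fit gave far smaller limma adjusted p-values than the main fit (for Mgam 1.3e-17 against 2.5e-06), and their size was not relied on. The lowest and highest log2 fold changes over the alternatives were -4.97 and -1.87 for Lct (pseudocounts of 0.1 and 5 RPKM), -3.41 and -3.18 for Sis and -0.63 and -0.38 for Mgam. Rescaling to a common sum moved the median of all genes from 0.03 to 0.14, and to 0.17 without the ribosomal RNA precursor Rn45s, and the share of calls that were higher from 54.4% to 69.1% and 71.7%. The number of higher genes, 4001, was 6040 with rescaling without Rn45s and 2532 with a minimum of 5 RPKM. Of 476 counts over the other lists, 451 stayed within 1.5 times. The block changed the call of Rsc1a1 and Usf2 among the listed genes, both then lower. Lct and Treh in low glutamine, at an estimated 67 to 103 reads per library, carry the largest counting error.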

Other observations

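Some sugar genes lay below the expression minimum and were not tested, and those named here were chosen after their values were seen. Slc2a7, an intestinal relative of the GLUT5 carrier, averaged 1.23 RPKM in control medium against 0.0325 RPKM in low glutamine medium. Slc5a4b and Slc5a4a, relatives of SGLT1, averaged 1.197 and 0.226 RPKM in control medium against 0.195 and 0.0162 RPKM in low glutamine medium. Slc2a3 (GLUT3) was higher in low glutamine medium, at 0.0082 RPKM in control medium against 0.343 RPKM in low glutamine medium. Slc5a10, Slc2a4 and Slc2a10 also had higher means there (0.037 and 0.166, 0.0336 and 0.102, and 0.115 and 0.194 RPKM), and Slc2a12 was listed at 0 in control medium and averaged 0.0217 RPKM in low glutamine medium. Slc2a13 averaged 0.0645 RPKM in control medium and was listed at 0 in low glutamine medium. The other two untested transporters of the list, Slc5a2 and Slc2a6, overlapped between the groups. The pancreatic amylase genes Amy2a5 and Amy2b were listed at 0 in every library, and the sweet taste receptor gene Tas1r3 stood at 0.285 and 0.311 RPKM.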
